A study of Homo sapiens with 6 samples.

Results

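Ubiquitin is a small protein that is joined to other proteins to mark them for destruction, sorting or signalling, and deubiquitinases are the proteases that take it off again. The ubiquitin-specific proteases (USP) are the largest family, the ovarian tumour (OTU) proteases and the ubiquitin C-terminal hydrolases (UCH) are smaller ones, and all 3 cut with a catalytic cysteine. Individual enzymes are known for work at chromatin and damaged DNA, at the proteasome and on endosomes. The genes described here are those whose whole symbol in the array's annotation is USP followed by digits, USPL1, OTUD with any further characters, OTUB1, UCHL with 1 digit, or BAP1, with USP18 left out by the same rule. By that rule 36 genes were found among 11963 on the array, of which 28 had a USP number, 4 belonged to the OTU family and 3 to the UCH family, and the last was USPL1. They were measured by 60 of 22215 probe sets. BAP1, USP10, USP28, USP37 and OTUD5 were not analysed here, nor was USP15, since its probe sets are annotated to a second gene as well, and USP9X and USP27X have a letter after the number and are described with other deubiquitinases below.

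Total RNA of MDA-MB-231, a human triple-negative breast cancer cell line, was measured on single-colour oligonucleotide arrays with a biotin label. The dinaciclib group held 3 samples taken 12 h after dinaciclib, an inhibitor of several cyclin-dependent kinases including the transcriptional kinase CDK9, was added to the medium (dissolved in DMSO), with the replicate names F, 4 and 5. The baseline group held 3 samples of the same line at 0 h, with the names E, 4 and 5. No dose is given, and no 12 h sample without dinaciclib is among those used here, so drug, solvent and time in culture cannot be told apart. Whether the samples of a group were grown as cultures of their own is not stated, so the p-values rest on sample-to-sample spread that may be technical.

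The line's mesenchymal markers were bright, with mean intensities of 8878 after dinaciclib and 8944 at baseline for VIM and of 5329 and 5825 for AXL in the same order, while SPARC was dim, here a mean under 16 (8.72 and 13.0). CDH1, the epithelial cadherin, was dim (6.29 and 8.12), as was the progesterone receptor gene PGR (1.92 and 2.91). The epithelial genes EPCAM (213 and 209) and KRT8 (889 and 853) were not dim, and neither was GATA3 (294 and 350). The oestrogen receptor gene ESR1 averaged 14.8 and 26.8, and ERBB2, which encodes the receptor HER2, averaged 74.7 and 167 and fell. Markers of blood, endothelial, liver and stromal cells (PTPRC, CD3E, PECAM1, CDH5, ALB and DCN) had means of 6.62 to 23.2 after dinaciclib and 3.05 to 33.1 at baseline. Of these, PECAM1 fell, with means of 10.9 after dinaciclib and 33.1 at baseline. Median intensity over all probe sets was lower on every dinaciclib array (40.6 to 46.8) than on every baseline array (53.3 to 66.2), so the arrays differed as a whole. The samples with a letter stood apart from those with a number in both groups, since the 18S ribosomal RNA control had intensities of 1155 and 736 in the letter samples (dinaciclib F and baseline E) and of at least 8273 in the 4 numbered samples. Their part in the results was not tested beyond the fits named below.

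After dinaciclib, 5 of the 36 deubiquitinase genes fell and 4 rose, and for 27 the difference did not reach the threshold. The genes that fell were USP20, USP33, USP34, USP47 and USP21, by log2 changes between -2.11 and -1.11, and the genes that rose were USPL1, USP36, USP3 and OTUD4, by log2 changes between 0.66 and 1.16. Each gene was read on its brightest probe set as log2(intensity + 1), tested with limma on all 15114 rows of the array, and called at a Benjamini-Hochberg adjusted p under 0.05. Among all genes tested, 16.4% fell and 3.54% rose, against 13.9% and 11.1% of the deubiquitinase genes. Their median log2 change was -0.15, and that of all genes was -0.26. In limma, 14 of the 36 genes had an unadjusted p under 0.05, as did 4069 of all 11963 genes. In 20 of the 36 genes (55.6%) dinaciclib and baseline samples did not overlap, with 10 lower and 10 higher after dinaciclib, while of all genes 30.7% were lower and 9.36% higher without overlap. These shares describe the genes beside the array as a whole, and no test was made of their difference. A lower level in a culture can be fewer cells with the transcript or less of it per cell, which these arrays cannot tell apart.

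**Figure D1:**
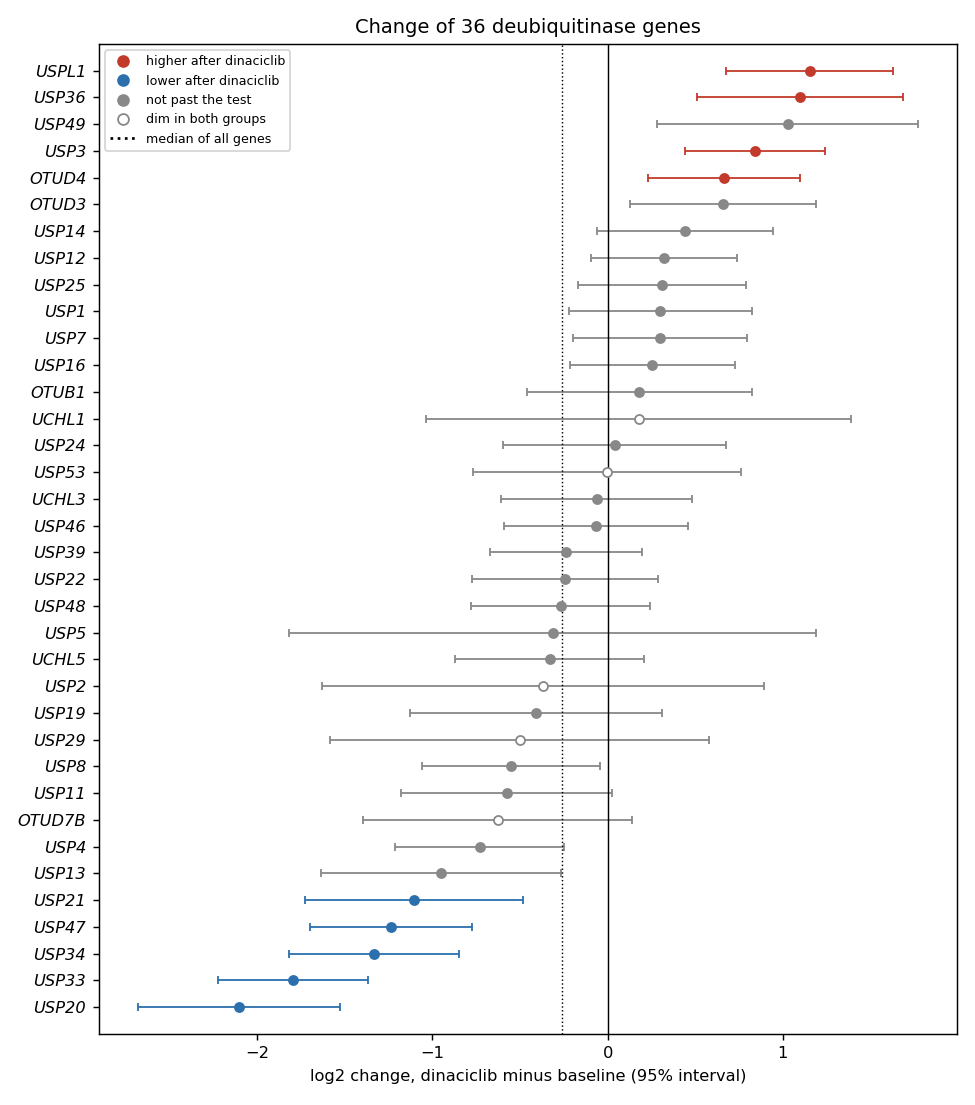
Log2 change of each of the 36 deubiquitinase genes, dinaciclib minus baseline, with its 95% interval from limma (3 samples per group). The 4 genes that rose are red, the 5 that fell are blue, 27 that did not pass are grey, open circles mark 5 genes dim in both groups, and the dotted line is the median of all genes at -0.26.

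USP20 and USP33 had the largest falls. They are close relatives that bind the von Hippel-Lindau protein and act on the recycling of cell-surface receptors. USP20 read 18.6, 14.7 and 11.1 in dinaciclib F, 4 and 5, against 67.8, 71.9 and 58.3 in baseline E, 4 and 5. All 3 dinaciclib samples lay far below every baseline sample. The log2 change was -2.11 with a standard error of 0.24 (adjusted p = 0.00463, limma with Benjamini-Hochberg). With a mean intensity of 14.8 after dinaciclib the gene was dim there, and with 16 added before the logarithm the log2 change was -1.42 and still passed. USP33 was bright in both groups, with 396, 446 and 455 in dinaciclib F, 4 and 5, against 1398, 1604 and 1508 in baseline E, 4 and 5. Again the groups were far apart, and the log2 change was -1.80 with a standard error of 0.18 (adjusted p = 0.00354, limma with Benjamini-Hochberg). This holds for the brightest of its 3 probe sets, and the others, which did not fall, are described below.

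USP34, a very large protease that acts on axin in Wnt signalling, had the next largest fall. It read 420, 371 and 299 in dinaciclib F, 4 and 5, against 889, 885 and 952 in baseline E, 4 and 5. No dinaciclib sample reached the lowest baseline sample, and the log2 change was -1.33 with a standard error of 0.20 (adjusted p = 0.0085, limma with Benjamini-Hochberg). USP47, known for keeping DNA polymerase beta stable during base excision repair, read 549, 605 and 561 in dinaciclib F, 4 and 5, against 1147, 1459 and 1465 in baseline E, 4 and 5. The dinaciclib samples lay close together and below every baseline sample, with a log2 change of -1.24 and a standard error of 0.19 (adjusted p = 0.00918, limma with Benjamini-Hochberg). USP21, which can remove ubiquitin from histone H2A, read 41.0, 37.5 and 31.3 in dinaciclib F, 4 and 5, against 58.0, 94.3 and 92.0 in baseline E, 4 and 5. Its groups did not overlap but baseline E was nearer to the dinaciclib samples, and the log2 change was -1.11 with a standard error of 0.26 (adjusted p = 0.031, limma with Benjamini-Hochberg). Its only probe set is of a kind that the maker marks as sharing probes with other transcripts.

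USPL1 had the largest rise among the genes past the test. Despite its name it is a protease for the ubiquitin-like protein SUMO, found in Cajal bodies. It read 344, 405 and 357 in dinaciclib F, 4 and 5, against 139, 181 and 176 in baseline E, 4 and 5. Every dinaciclib sample was above every baseline sample, and the log2 change was 1.16 with a standard error of 0.20 (adjusted p = 0.0123, limma with Benjamini-Hochberg). USP36, the nucleolar deubiquitinase, read 176, 177 and 247 in dinaciclib F, 4 and 5, against 97.7, 107 and 73.6 in baseline E, 4 and 5. The groups did not overlap, dinaciclib 5 was the highest and baseline 5 the lowest, and the log2 change was 1.10 with a standard error of 0.24 (adjusted p = 0.0267, limma with Benjamini-Hochberg).

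USP3, which removes ubiquitin from histones H2A and H2B, had the tightest groups of the genes that rose. It read 1002, 984 and 939 in dinaciclib F, 4 and 5, against 548, 552 and 532 in baseline E, 4 and 5. The log2 change was 0.84 with a standard error of 0.17 (adjusted p = 0.0185, limma with Benjamini-Hochberg). OTUD4, an OTU protease linked to the repair of alkylated DNA, read 2133, 2245 and 2325 in dinaciclib F, 4 and 5, against 1341, 1581 and 1317 in baseline E, 4 and 5. The groups did not overlap, but the gene lay at the edge of the threshold, with a log2 change of 0.66 and a standard error of 0.18 (adjusted p = 0.0487, limma with Benjamini-Hochberg). It no longer passed when all 22215 probe sets were adjusted together (0.0555).

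**Figure D2:**
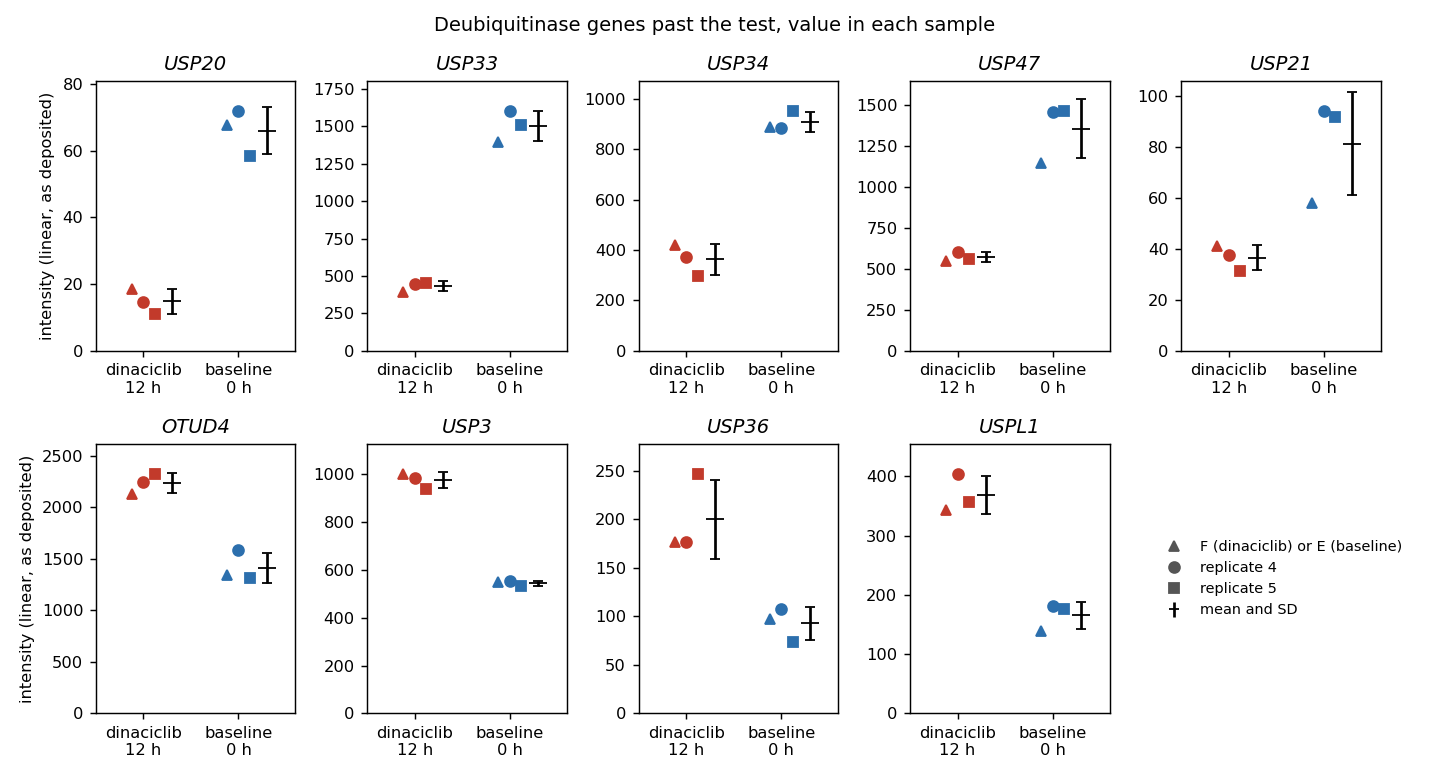
Intensity as deposited (linear axes from 0, a scale for each gene) of the 9 deubiquitinase genes past the test, in each dinaciclib sample (red, left) and baseline sample (blue, right), with the mean and SD of 3 samples in black. In each of the 9 genes the values of the groups do not overlap, and replicate names are given by the shape of the point.

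USP20, USP33, USP34, USP47 and USPL1 passed whichever 1 of the 6 samples was left out, with adjusted p of at most 0.0487. USP36 and OTUD4 passed in none of these 6 fits (adjusted p 0.0526 to 0.0943 and 0.085 to 0.175), and USP21 (0.0198 to 0.108) and USP3 (0.0345 to 0.0843) passed only without baseline E. Within the 4 numbered samples alone, the same 5 genes fell and USPL1 rose (9.86% and 1.92% of all genes), while USP3 (0.0619), USP36 (0.0917) and OTUD4 (0.113) did not pass (adjusted p, limma with Benjamini-Hochberg). The letter samples give 1 value per group and no test. The difference of dinaciclib F minus baseline E ran from -1.82 for USP33 to 1.30 for USPL1 among the 9 genes. Its sign had to match the whole, since the groups of these 9 genes did not overlap, so the match adds no support.

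The 5 falls were called under each way of scaling the arrays that was tried, and the 4 rises were not. As deposited, 5 genes fell and 4 rose, and after quantile normalization, 6 fell and 8 rose (13.4% and 8.89% of all genes). With each array centred on its own median, 5 fell and 12 rose (10.9% and 16.3% of all genes). With each array centred on the 42 spiked control probe sets, 5 fell and 0 rose in limma (13.0% and 1.67% of all genes). In that fit 10 of the 36 genes had an unadjusted p under 0.05, as did 3632 of all 11963 genes. USP20, USP33, USP34, USP47 and USP21 were called as lower under each of these 4 scalings, with log2 changes between -2.22 and -0.66. USPL1 was the nearest to passing with spiked controls, with a log2 change of 1.04 (adjusted p = 0.0529, limma with Benjamini-Hochberg). The median log2 change of all genes was -0.02 after quantile normalization, 0.19 with median centring and -0.37 with spiked controls. That of the deubiquitinase genes was 0.04, 0.30 and -0.27 in the same order.

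**Figure D3:**
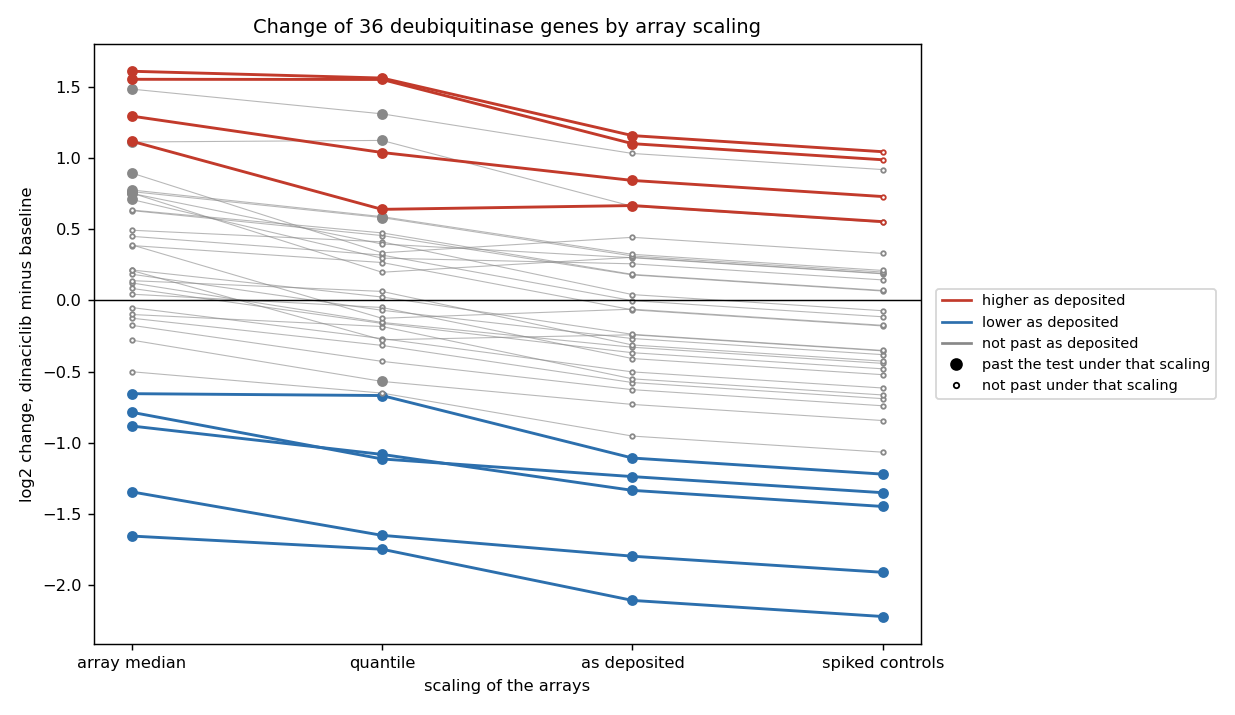
Log2 change (dinaciclib minus baseline) of each of the 36 deubiquitinase genes, joined by a line across 4 ways of scaling the arrays, with filled points where the gene passed the test. The 5 blue lines keep filled points below 0 throughout, while the 4 red lines lose them with spiked controls and 8 grey genes gain them with median centring.

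The stretches before the start sites of the 2 genes with the largest falls, and of 2 that rose, are shown because the comparison turns on these genes. RefSeq (GRCh38.p14) gave a start-site entry for 33 of the 36 genes, and USPL1 had none matched. The letters are the 250 bases before the annotated start, written 5' to 3' on the gene's strand. Capitals mark matches, on either strand and with overlapping matches counted apart, to any of the motifs searched. These were the GC box GGGCGG, which the factor SP1 is known to bind, and the site CCGGAAG of the ETS family of factors. The TATA box was searched as TATAAA, the AP-1 site, bound by FOS and JUN proteins, as TGANTCA, and the E-box, bound by MYC and its relatives, as CACGTG.
USP20, chr9:129835208-129835457, plus strand: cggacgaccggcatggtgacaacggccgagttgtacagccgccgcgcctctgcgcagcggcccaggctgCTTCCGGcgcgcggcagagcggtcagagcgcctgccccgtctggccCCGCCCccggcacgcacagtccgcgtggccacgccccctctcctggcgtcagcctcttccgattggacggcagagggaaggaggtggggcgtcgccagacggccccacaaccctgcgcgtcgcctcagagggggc
USP33, chr1:77759853-77760102, minus strand: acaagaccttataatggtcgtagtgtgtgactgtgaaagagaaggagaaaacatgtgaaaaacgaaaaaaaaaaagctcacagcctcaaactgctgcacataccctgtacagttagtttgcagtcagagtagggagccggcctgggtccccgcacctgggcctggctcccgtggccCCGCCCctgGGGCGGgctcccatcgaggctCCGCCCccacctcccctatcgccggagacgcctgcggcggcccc
USP36, chr17:78840815-78841064, minus strand: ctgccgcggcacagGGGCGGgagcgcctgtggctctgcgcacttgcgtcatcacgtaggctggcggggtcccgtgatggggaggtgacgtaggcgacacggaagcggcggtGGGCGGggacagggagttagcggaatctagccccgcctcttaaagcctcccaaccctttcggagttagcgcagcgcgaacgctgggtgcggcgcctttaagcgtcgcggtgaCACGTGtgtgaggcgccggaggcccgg
USP3, chr15:63504343-63504592, plus strand: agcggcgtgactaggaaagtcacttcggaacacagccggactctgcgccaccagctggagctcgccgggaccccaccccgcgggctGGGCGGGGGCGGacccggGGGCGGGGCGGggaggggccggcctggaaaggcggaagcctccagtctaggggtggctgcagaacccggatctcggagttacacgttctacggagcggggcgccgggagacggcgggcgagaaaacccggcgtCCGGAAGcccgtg
USP20 held 1 GC box and 1 ETS-type site, USP33 held 3 GC boxes, USP36 held 2 GC boxes and an E-box, and USP3 held 4 GC boxes and 1 ETS-type site. A GC box was found before 27 of the 33 deubiquitinase genes (81.8%), against 42.3% of 27305 RefSeq start sites, in 4 of 5 genes that fell and in 3 of 3 matched genes that rose. An ETS-type site was found before 21.2% of the deubiquitinase genes, against 8.82% of all start sites, a TATA box before 6.06% against 11.1%, an AP-1 site before 3.03% against 6.60% and an E-box before 3.03% against 6.49%. The median share of G and C was 68.8% before deubiquitinase genes and 58.0% before all start sites. The letters of a GC box are all G and C, and the part of base content in these shares was not tested. The 27305 start sites are not limited to the 11963 genes on the array, so these shares compare unlike sets. A match describes letters only, and whether these motifs have a part in the falls or rises was not tested.

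Of 7 measured histone deubiquitinase genes, USP3 rose, USP21 fell and 5 did not pass, with a median log2 change of 0.26. Of all genes, 16.4% fell and 3.54% rose, with a median of -0.26, and these values stand beside each group of genes below. USP22, the H2B deubiquitinase of the SAGA coactivator complex, read 1706, 2006 and 1490 in dinaciclib F, 4 and 5, against 1682, 2291 and 2192 in baseline E, 4 and 5. The groups overlapped, and the log2 change of -0.24 (95% interval -0.78 to 0.29) did not pass. USP16, which acts on H2A in mitosis, had a log2 change of 0.26 (-0.21 to 0.73), and its only probe set is also of the kind marked as sharing probes. USP49, an H2B deubiquitinase, read 29.1, 22.5 and 18.2 in dinaciclib F, 4 and 5, against 14.9, 11.1 and 7.32 in baseline E, 4 and 5. All 3 dinaciclib samples were higher, but the gene was dim at baseline and its log2 change of 1.03 (standard error 0.31) did not pass (adjusted p = 0.0664, limma with Benjamini-Hochberg). USP12 and USP46, close relatives that share the activating partner WDR48, had log2 changes of 0.32 and -0.07 and did not pass.

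Among 6 measured genes of DNA repair, replication and checkpoints, USP47 fell, 0 rose in limma and 5 did not pass, and 0 were higher at an unadjusted p under 0.05. USP1, which takes ubiquitin off PCNA and FANCI, read 4543, 5494 and 5620 in dinaciclib F, 4 and 5, against 3471, 4353 and 4959 in baseline E, 4 and 5. Dinaciclib F was below baseline 5, so the groups overlapped, and the log2 change was 0.30 (95% interval -0.22 to 0.82). USP7, which acts on MDM2 and p53, read 1214, 1429 and 1073 in dinaciclib F, 4 and 5, against 875, 1120 and 1021 in baseline E, 4 and 5. It too overlapped, with a log2 change of 0.30 (-0.20 to 0.80). OTUB1, which blocks the ubiquitin-conjugating enzyme UBE2N without cutting, read 473, 630 and 477 in dinaciclib F, 4 and 5, against 336, 553 and 524 in baseline E, 4 and 5, a log2 change of 0.18 (-0.46 to 0.83). The groups of OTUB1 overlapped widely. USP11 (-0.58, standard error 0.25) and USP48 (-0.27, standard error 0.21) did not pass either, and USP1 and USP7 were called as higher only with median centring, at log2 changes of 0.75 each.

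Of 4 genes of proteasome-bound and free-chain enzymes, 0 passed in limma as deposited, and 1, USP13, had an unadjusted p under 0.05. USP14, which trims ubiquitin at the proteasome, read 4299, 5233 and 4985 in dinaciclib F, 4 and 5, against 2958, 4114 and 3677 in baseline E, 4 and 5. All 3 dinaciclib samples were above the baseline samples on this brightest probe set, but the log2 change of 0.44 (95% interval -0.06 to 0.95) did not pass. On the other probe set of USP14, of the kind marked as sharing probes, the groups overlapped, with a log2 change of -0.01. UCHL5, the UCH enzyme of the proteasome and of the INO80 remodeller, read 606, 790 and 708 in dinaciclib F, 4 and 5, against 705, 988 and 968 in baseline E, 4 and 5, a log2 change of -0.33 (-0.87 to 0.21). USP13, known for acting on beclin 1 in autophagy, read 392, 357 and 293 in dinaciclib F, 4 and 5, against 475, 705 and 890 in baseline E, 4 and 5. Its groups did not overlap, but the baseline samples were widely spread, and the log2 change of -0.95 (standard error 0.28) did not pass (adjusted p = 0.0652, limma with Benjamini-Hochberg). USP5, which takes apart free ubiquitin chains, ranged from 14.3 to 80.8 after dinaciclib and from 33.4 to 66.5 at baseline.

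In the UCH family, 0 of 3 measured genes passed in limma, and 0 had an unadjusted p under 0.05. UCHL3, which also acts on NEDD8, read 1737, 2377 and 2091 in dinaciclib F, 4 and 5, against 1751, 2371 and 2369 in baseline E, 4 and 5, a log2 change of -0.06 (95% interval -0.61 to 0.48). The samples of its groups covered nearly the same range. UCHL1, abundant in neurons, was dim, with 12.1, 12.6 and 20.3 in dinaciclib F, 4 and 5, against 5.65, 15.0 and 23.6 in baseline E, 4 and 5. In the OTU family, OTUD4 rose and OTUB1, OTUD3 and OTUD7B did not pass. OTUD3 read 178, 184 and 137 in dinaciclib F, 4 and 5, against 93.6, 124 and 97.5 in baseline E, 4 and 5. Every dinaciclib sample of OTUD3 was higher, with a log2 change of 0.66 (standard error 0.22), but the gene did not pass (adjusted p = 0.0897, limma with Benjamini-Hochberg). It passed in 5 of 17 alternative fits, with adjusted p between 0.0054 (quantile normalization) and 0.33 (spiked controls) over all of them. OTUD7B was at intensities of 1.07 to 2.36 after dinaciclib and 2.32 to 5.14 at baseline, near the floor of the arrays.

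Among 5 measured genes of membranes, endosomes and the endoplasmic reticulum, USP20 and USP33 fell and 3 did not pass. USP8, which sorts receptors such as EGFR on endosomes, read 354, 320 and 259 in dinaciclib F, 4 and 5, against 441, 516 and 407 in baseline E, 4 and 5. The groups did not overlap, but the log2 change of -0.55 (standard error 0.21) did not pass (adjusted p = 0.129, limma with Benjamini-Hochberg). USP25 (0.31, standard error 0.20) and the membrane-anchored USP19 (-0.41, standard error 0.30) did not pass. Among 4 genes of TGF-beta and growth signalling, USP34 fell and USP4, OTUD7B and USP2 did not pass. USP4, which acts on the TGF-beta type I receptor, read 671, 659 and 559 in dinaciclib F, 4 and 5, against 907, 1203 and 1040 in baseline E, 4 and 5. Its groups were apart and it lay just outside the threshold, with a log2 change of -0.73 and a standard error of 0.20 (adjusted p = 0.0511, limma with Benjamini-Hochberg). It was called as lower in 6 of 17 alternative fits, quantile normalization among them (-0.57), but neither with median centring (-0.28) nor with spiked controls (-0.84). Of 3 genes linked to RNA or without the usual activity, USPL1 rose and USP39 and USP53 did not pass. USP39, a splicing factor without protease activity, was at 487 to 494 after dinaciclib and 513 to 634 at baseline, a log2 change of -0.24 (standard error 0.18). USP2, USP29, USP53, UCHL1 and OTUD7B had mean intensities under 16 in both groups, so little can be read from them.

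For 15 of the 36 genes there were 2 to 4 probe sets, and in several of them the probe sets moved apart. USP24, a large deubiquitinase, was the most divergent. Its brightest probe set by the mean of all 6 samples read 438, 385 and 305 in dinaciclib F, 4 and 5, against 320, 484 and 305 in baseline E, 4 and 5. It showed no difference beyond the spread (log2 change 0.04, standard error 0.27). The other probe set read 73.4, 73.1 and 56.4 in dinaciclib F, 4 and 5, against 399, 561 and 476 in baseline E, 4 and 5. It fell by 2.80 on the log2 scale with a standard error of 0.23 (adjusted p = 0.00297, limma with Benjamini-Hochberg over 22215 probe sets), more than any gene's brightest probe set here, so USP24 is not among the 5 genes that fell although a probe set of it did.

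USP33 was the next most divergent. While its brightest probe set fell, a second one read 740, 727 and 576 in dinaciclib F, 4 and 5, against 277, 532 and 413 in baseline E, 4 and 5. Its dinaciclib samples were all above its baseline samples, with a log2 change of 0.78 (standard error 0.29) that did not pass (adjusted p = 0.126, limma with Benjamini-Hochberg over 22215 probe sets). Another, dim probe set had a log2 change of 0.49 and did not pass. With the mean of its probe sets in place of the brightest, the change of USP33 was -0.17 on the log2 scale and did not pass, so the fall of USP33 applies to its brightest probe set. USP34 fell on 3 of its 4 probe sets, with log2 changes of -1.33, -1.74 and -2.00, while its remaining one, of the kind marked as sharing probes, read 392, 298 and 320 in dinaciclib F, 4 and 5, against 394, 303 and 343 in baseline E, 4 and 5.

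OTUD4 had positive changes on all 3 probe sets, with log2 changes of 0.66, 1.34 and 1.55, of which only the dimmest passed over all probe sets (adjusted p = 0.0128, limma with Benjamini-Hochberg). USP46 had a brightest probe set without a difference beyond the spread and another that read 428, 467 and 436 in dinaciclib F, 4 and 5, against 183, 281 and 279 in baseline E, 4 and 5. That probe set lay just outside the threshold, with a log2 change of 0.87 and a standard error of 0.24 (adjusted p = 0.0527, limma with Benjamini-Hochberg over 22215 probe sets). By contrast, the probe sets of USP1, USP4, USP7, UCHL5 and OTUB1 lay within 0.20 log2 units of each other. Of the 60 probe sets, 8 fell (13.3%) and 4 rose (6.67%), against 13.4% and 3.86% of all probe sets.

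The median distance between the highest and lowest probe set of a gene was 0.75 log2 units for the 15 genes and 0.58 for 4310 genes with 2 or more probe sets. Changes of both signs were found in 6 of the 15 genes, against 38.7% of the 4310, and some but not all probe sets passed in 4 genes (26.7%, against 25.2%). Divergence between probe sets was about as frequent here as on the array as a whole. The sources used here do not say where the probe sets lie along the transcripts. The ratio of the 3' to the 5' control probe set of ACTB was 3.64, 5.87 and 6.23 in dinaciclib F, 4 and 5, against 4.27, 6.61 and 6.67 in baseline E, 4 and 5, and that of GAPDH was 1.15 to 1.19 after dinaciclib and 1.18 to 1.24 at baseline. The part of transcript integrity in the divergence was not tested.

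**Figure D4:**
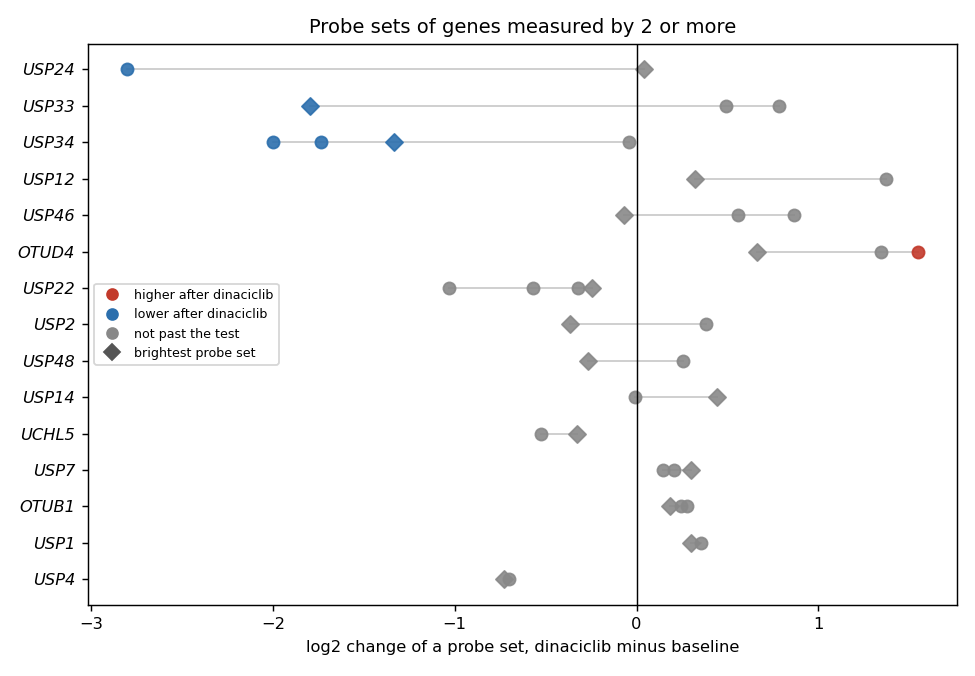
Log2 change (dinaciclib minus baseline) of every probe set of the 15 deubiquitinase genes with 2 or more, ordered by the distance between the extremes, with diamonds for the brightest probe set and colour for the test over all 22215 probe sets. USP24, USP33 and USP34 spread over 2.84, 2.58 and 1.95 log2 units, while USP4 spreads over 0.03.

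Of 20 measured genes listed as deubiquitinases outside the rule, 6 fell, 4 rose and 10 did not pass. Their median log2 change was -0.19, against -0.26 for all genes, of which 16.4% fell and 3.54% rose. PAN2, counted among the 6, is not an active deubiquitinase. USP27X, JOSD1, STAMBP and BRCC3 fell, by log2 changes between -1.45 and -1.10. STAMBPL1, a metalloprotease that cuts ubiquitin chains, read 53.0, 55.6 and 67.8 in dinaciclib F, 4 and 5, against 13.1, 1.80 and 3.11 in baseline E, 4 and 5. All baseline samples were dim, so the size of its rise depends on what is added before the logarithm. The log2 change was 3.44 with 1 added (standard error 0.59, adjusted p = 0.0123, limma with Benjamini-Hochberg) and 1.79 with 16 added, a setting chosen for these genes after seeing the data. VCPIP1, an OTU protease that works with the segregase VCP (log2 change 1.71, standard error 0.28), TNFAIP3, the NF-kB inhibitor A20 (1.53, standard error 0.33), and YOD1 (1.40, standard error 0.27) rose as well. MINDY2 (-1.71, standard error 0.21) and PAN2, a deadenylase subunit that carries an inactive USP-like domain (-1.56, standard error 0.19), fell too. BRCC3 and TNFAIP3 were read on the brighter of 2 probe sets and MINDY2 on the brightest of 3. Their other probe sets are not described here. USP9X, a large X-linked deubiquitinase, read 1538, 1235 and 1025 in dinaciclib F, 4 and 5, against 2138, 2492 and 1801 in baseline E, 4 and 5. Its groups did not overlap, but its log2 change of -0.77 (standard error 0.24) did not pass (adjusted p = 0.0729, limma with Benjamini-Hochberg), although it did with 16 added (-0.76).

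**Figure D5:**
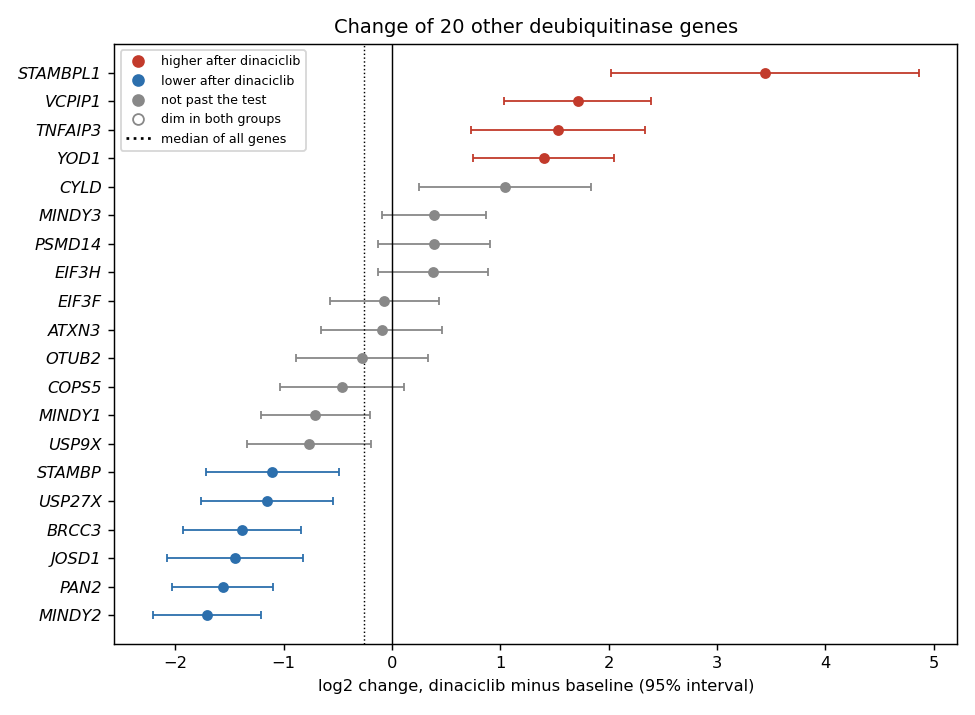
Log2 change (dinaciclib minus baseline) with its 95% interval from limma for 20 genes listed as deubiquitinases outside the rule. Genes that rose are red (4), genes that fell are blue (6, PAN2 with its inactive domain among them) and the others are grey (10). STAMBPL1, dim at baseline, lies at 3.44 (1.79 with 16 added to the intensities) and MINDY2 at -1.71, and the dotted line is the median of all genes at -0.26.

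Among 15 measured partners of the deubiquitinases, 2 rose, 3 fell and 10 did not pass, while 3.54% of all genes rose and 16.4% fell. ASXL1 rose (1.20, standard error 0.25) and ASXL2 fell (-1.28, standard error 0.23), which encode alternative partners of BAP1, and of other proteins of that complex OGT rose (0.81, standard error 0.17) and FOXK2 fell (-1.46, standard error 0.25). BAP1 itself was not analysed here. ASXL1 and OGT were read on the brightest of 3 and 5 probe sets, and their other probe sets are not described here. GMPS, which binds USP7, fell (-1.18, standard error 0.22). Of 22 measured genes for known substrates, 5 fell, 0 rose in limma and 17 did not pass, with a median log2 change of -0.36. Of all genes, 16.4% fell and 3.54% rose, with a median of -0.26. The list was not limited to substrates of enzymes measured here. EGFR, a substrate of USP8, had the largest fall, with 152, 223 and 162 in dinaciclib F, 4 and 5, against 554, 1273 and 1180 in baseline E, 4 and 5. Its groups were far apart, and the log2 change on the brightest of its 6 probe sets was -2.41 with a standard error of 0.37 (adjusted p = 0.00902, limma with Benjamini-Hochberg). MDM2, the p53 ligase on which USP7 acts, fell on the brightest of its 5 probe sets (-1.64, standard error 0.30), and TP53BP1 (-1.25), FANCI (-1.11) and CCNA2 (-0.93) were the others that fell. TP53BP1, FANCI and CCNA2 were each read on the brighter of 2 probe sets. At an unadjusted p under 0.05 in limma, 4 substrate genes were higher and 6 were lower, while 4069 of all 11963 genes passed in either direction.

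Of 6 measured genes for ubiquitin and its activating enzymes, 0 passed in limma, and 1 had an unadjusted p under 0.05. Of 19 genes for ubiquitin-conjugating enzymes, 1 rose, 2 fell and 16 did not pass, with a median log2 change of -0.18. Of all genes, 3.54% rose and 16.4% fell, with a median of -0.26. UBE2G1, on the brighter of its 2 probe sets, read 1800, 2361 and 2113 in dinaciclib F, 4 and 5, against 735, 967 and 970 in baseline E, 4 and 5. Its groups did not overlap, and the log2 change was 1.23 with a standard error of 0.21 (adjusted p = 0.0128, limma with Benjamini-Hochberg). UBE2V2 (-1.16, standard error 0.25) and UBE2S, which extends chains for the anaphase-promoting complex (-0.91, standard error 0.19), fell.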

How the data were processed

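The deposited values are 1 intensity for each of 22277 probe sets in each of 6 samples, on a linear scale. The submitters' summarization and normalization of the arrays are not given in the sources used here, and the deposited intensities do not have a common median. The 62 control probe sets were left out of the tests. Genes were named from the platform's annotation (19064 probe sets with 1 gene, 1043 with several, 2108 with none), and probe sets with several genes were not given to any gene. A gene was read on its brightest probe set over all 6 samples. Values were tested as log2(intensity + 1) with limma 3.58.1 in R 4.3.3 (lmFit and eBayes, 3 against 3, no covariate), adjusted with Benjamini-Hochberg over 15114 rows, of which 3151 were probe sets without a single gene. An alternative tested every probe set. The number of arrays limits the precision. Fits were tested on simulated data. The 36 genes and all gene lists were chosen with earlier results of these data known. Sample values were given for the genes past the test, a set list of 12 genes of which 8 were measured, and further genes near the threshold chosen after their values were seen. From the other lists, genes with the 2 largest rises and 2 largest falls, USP9X and STAMBPL1 were named, and the remaining called genes after their values were seen. Promoter letters came from RefSeq (GRCh38.p14). The alternatives were other scalings, covariates, filters, probe set rules, pseudocounts and left-out samples.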

Additional observations from a re-analysis of the deposited data

How the results depend on the processing

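The count of deubiquitinase genes that rose in limma was 4 as deposited, 8 after quantile normalization and 12 with median centring. It was 0 with spiked control centring and 1 in the numbered samples alone. With spiked controls, 10 of the 36 genes had an unadjusted p under 0.05 in either direction, as did 3632 of all 11963 genes. With dim genes left out, 8 of the 30 genes still tested fell and 5 rose, against 35.4% and 8.88% of 7586 genes. With 1 sample left out in turn, 4 to 7 genes fell and 1 to 3 rose, against 7.51% to 15.4% and 1.55% to 2.64% of all genes. The number that rose was 1 without dinaciclib F, dinaciclib 4, dinaciclib 5, baseline 4 or baseline 5, and 3 without baseline E. Deviations of samples with the same number correlated at 0.083 and 0.076, and those of dinaciclib F and baseline E at 0.169. Each was small but higher than that of any other dinaciclib and baseline pair (-0.111 to 0.038). Whether the samples form pairs was not tested, and the main fit did not pair them. In the fit with the replicate block, E and F were levels of their own, so its changes rest on the 4 numbered samples and equal those of the numbered samples alone. With it, 0 genes fell and 0 rose in limma (14 genes at an unadjusted p under 0.05), and 0 of all genes were called (4093 at an unadjusted p under 0.05). Without the block, those 4 samples gave 5 falls and 1 rise. With all probe sets of a gene averaged, USP24 changed by -1.38 on the log2 scale (adjusted p = 0.0132, limma with Benjamini-Hochberg), against 0.04 on its brightest probe set, and the average takes in its other probe set, which fell. The other alternatives (a batch term for letter or number, another variance model, every probe set, 16 added) gave 5 to 7 falls and 3 to 5 rises, against 15.8% to 22.4% and 3.32% to 5.64% of all genes. Over 17 alternatives, 13 genes changed sign in some setting with neither value past the threshold. The causes were not tested otherwise. Signal limits USP2, USP29, USP53, UCHL1 and OTUD7B, which were dim in both groups.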
